A study of Mus musculus with 3 samples.

Results

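The genes described here encode the molecules by which leukocytes hold on to vessel walls, matrix and each other: integrin chains and their activators, endothelial selectins and a selectin ligand, adhesion receptors of the immunoglobulin superfamily, and CD44, CD47 and CD9. They were chosen by symbol from the deposited gene tables, and 54 of the 23234 listed genes were members, of which 53 are described. Their transcript levels were read in 3 sorted cell populations of wild-type C57BL/6J mice aged 6 to 15 weeks, all of which had received lipopolysaccharide (LPS, an inflammatory molecule of the bacterial envelope) into both nostrils, 10 µg in 10 µL of PBS. Double-positive cells, called DP in the labels, were CD45+Ly6G+SiglecF+ cells sorted 2 days after LPS from nasal tissue. Nasal neutrophils were CD45+Ly6G+SiglecF- cells sorted 1 day after LPS from the same tissue, and blood neutrophils were cells of that second gate taken from peripheral blood, also 1 day after LPS. Each group was 1 library, and how many mice gave cells to a library is not given in the labels. With 1 library per group no difference below has a replicate error, a test or a p-value. Between DP cells and nasal neutrophils, gate and day differ together and cannot be told apart, and between DP cells and blood neutrophils the tissue differs as well.

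A neutrophil leaves the blood in steps. Selectins and their ligand PSGL-1 let it roll along the vessel wall, integrins of the β2 and β1 classes then switch to a high-affinity form and hold it in place, and immunoglobulin superfamily molecules such as ICAM-1 serve as their counter-receptors on endothelium and other cells. Each integrin is a pair of an α and a β chain, and the α chain sets much of what the pair binds. Talin and the kindlins bind the tail of the β chain inside the cell and switch the integrin on.

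The values are FPKM, which scale the number of sequenced fragments to transcript length and library size, so that levels of different genes can be set side by side. The depth, estimated from the spacing of low values, was about 54800000 fragments in DP cells and 12800000 in nasal neutrophils, against 54300000 in blood neutrophils. A level of 1 FPKM thus stands for about 54.8, 12.8 and 54.3 fragments per kb of transcript in these libraries, so the nasal neutrophil values are the least precise. An exact 0 in such a table can be a failed estimate: the neutrophil gene S100a8 was listed at 0 in blood neutrophils. All 10 neutrophil markers were lower in DP cells than in nasal neutrophils, from Csf3r at 581.4 against 606.8 FPKM to Lcn2 at 70.2 against 3577 FPKM. Their sum was 12712 FPKM in DP cells and 57457 in nasal neutrophils, against 79589 in blood neutrophils, and without S100a8 it was 5055, 27639 and 79589 FPKM. Of 9 eosinophil markers, the granule genes Epx and Prg3 were listed at 0 in all 3 libraries. In DP cells 4 of the 9 were higher than in nasal neutrophils, such as Alox15 at 7.98 against 2.73 FPKM. Another 3 were lower, such as Ear2 at 0.43 against 11.5 FPKM. The sum of the 9 was 11.2 FPKM in DP cells and 16.9 in nasal neutrophils, against 6.86 in blood neutrophils. Without Ear2 it was 10.8, 5.38 and 5.52 FPKM in that order, so its direction between the nasal libraries rested on Ear2. Both nasal libraries also held transcripts of other nasal cells. The summed level of 10 olfactory neuron markers was 1994 FPKM in DP cells and 967.8 in nasal neutrophils, against 4.89 in blood neutrophils, and that of 10 epithelial markers was 456.8, 313.8 and 1.76 FPKM in the same order. The blood library in turn held erythroid transcripts. The sum of 6 erythroid markers was 18.5 FPKM in DP cells and 12.2 in nasal neutrophils, against 3981 in blood neutrophils. In such bulk samples, fewer cells of a type and less RNA per cell cannot be told apart.

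Of the 53 members, 30 had a mean over the 3 libraries of 1 FPKM or more, and none of these 30 was at 0 in any library. The other 23 had means of up to 0.98 FPKM, and 3 of them were at 0 in DP cells and 2 in nasal neutrophils, against 10 in blood neutrophils. The members nearest to that limit were Itgb6 and Itgb3 outside it, with means of 0.93 and 0.98 FPKM, and Sele and Fermt2 inside it, with means of 1.24 and 1.34 FPKM. Of the members described, the highest in both nasal libraries was Cd9, and in blood neutrophils it was Selplg. Differences are given as differences in log2(FPKM + 1), which understate the ratio of low genes, and a gene called 4-fold higher or lower differed by at least 2 on that scale.

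**Figure D1:**
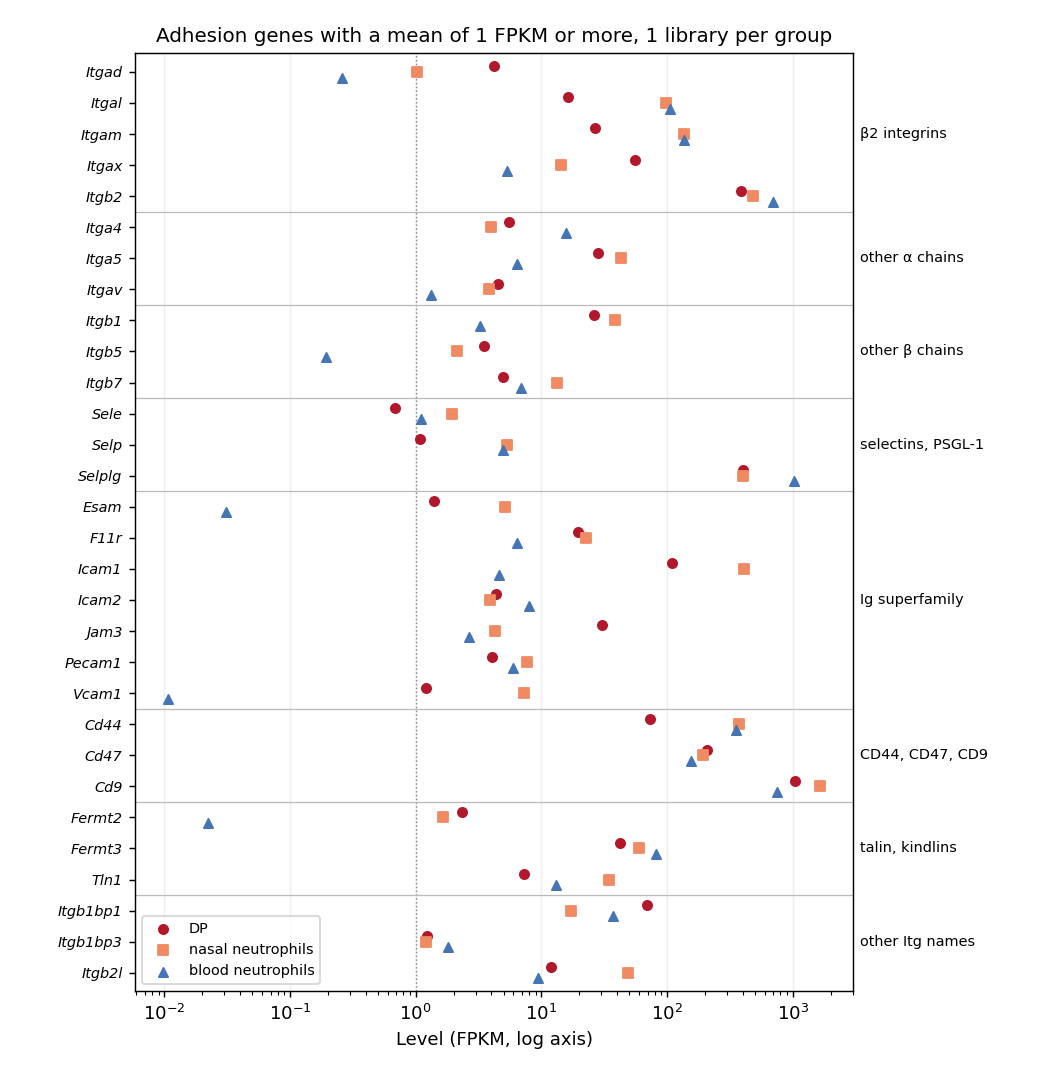
Level of each of the 30 members with a mean of 1 FPKM or more, in FPKM on a log axis, with 1 point per library (circles DP, squares nasal neutrophils, triangles blood neutrophils) and rows grouped by role. The blood point lies far left of both others for Vcam1, Esam and Fermt2, and the DP point lies apart to the left for Itgal, Itgam and Cd44 and to the right for Itgax and Jam3.

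Among the β2 integrins, the class found on leukocytes alone, the shared β chain was held at a high level in every library while the α chains differed. Itgb2, which encodes the β2 chain (CD18), stood at 391.5 FPKM in DP cells and 486.3 in nasal neutrophils, against 696.1 in blood neutrophils. Itgal, the α chain of LFA-1, stood at 16.3 FPKM in DP cells and 97.4 in nasal neutrophils, against 105.6 in blood neutrophils. Itgam, the α chain of Mac-1 (CD11b), stood at 26.9, 137.3 and 136.4 FPKM in DP cells, nasal and blood neutrophils. Both α chain genes were thus low in DP cells alone, by a difference of -2.51 for Itgal and -2.31 for Itgam against nasal neutrophils, while nasal and blood neutrophils differed by -0.12 and 0.01. Itgax, the α chain CD11c that also marks dendritic cells and tissue macrophages, ran the other way, at 55.4 FPKM in DP cells and 14.3 in nasal neutrophils, against 5.34 in blood neutrophils. Itgad, the α chain CD11d, followed that order at a lower level, with 4.19, 1.02 and 0.26 FPKM. The difference between DP and nasal neutrophils was 1.88 for Itgax and 1.36 for Itgad, both short of 4-fold, and against blood neutrophils it was 3.15 and 2.04.

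Seen as shares within each library, which library size cannot change, the leading α chain in DP cells was not that of the other libraries. Itgax made up 53.9% of the summed FPKM of the 4 α chains in DP cells, 5.73% in nasal neutrophils and 2.16% in blood neutrophils. Itgam made up 26.2%, 54.9% and 55.1% in DP cells, nasal and blood neutrophils, and Itgal 15.8%, 39.0% and 42.7%. The summed level of the α chains was 102.7 FPKM in DP cells and 250.02 in nasal neutrophils, against 247.6 in blood neutrophils, and the level of Itgb2 was 3.81, 1.95 and 2.81 times that sum. The shares rest on many fragments, with Itgax at about 12291 in DP cells and 741 in nasal neutrophils, against 1173 in blood neutrophils. The 4 genes are related in sequence, and how reads common to them were assigned is not given in the sources used here.

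**Figure D2:**
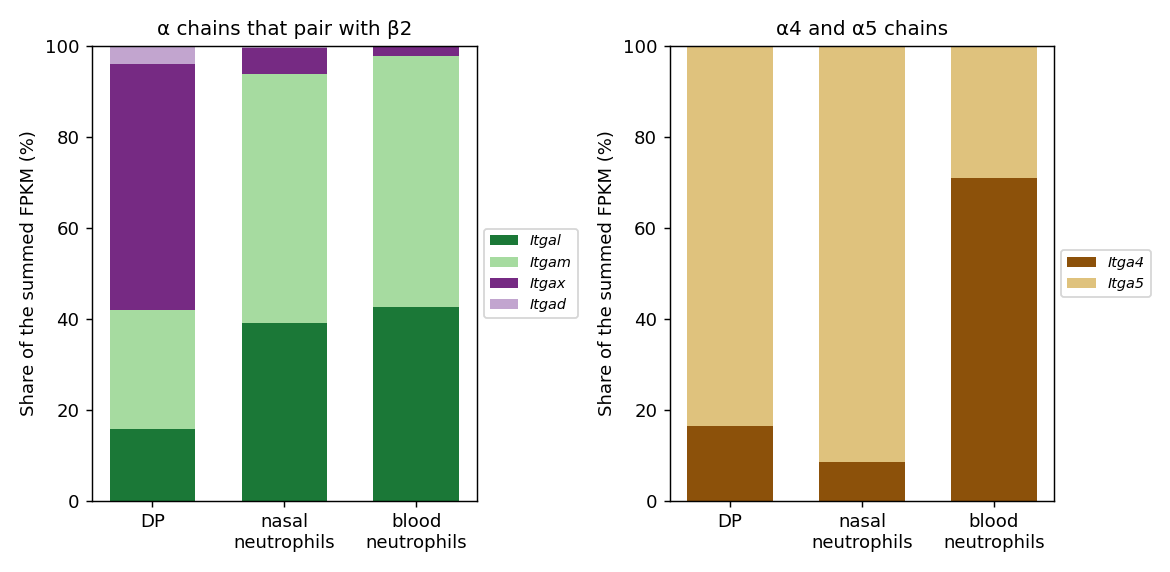
Stacked bars of the share, in percent of summed FPKM within a library, of the 4 α chain genes that pair with β2 (left) and of the α4 and α5 chain genes (right), with 1 bar each for DP, nasal neutrophils and blood neutrophils. Itgax takes 53.9% of the left bar in DP cells and 5.73% in nasal neutrophils, and Itga4 takes 16.4% of the right bar in DP cells and 8.45% in nasal neutrophils, against 71.0% in blood neutrophils.

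Macrophages and dendritic cells also carry CD11c, and their part in the Itgax level was not tested. The summed level of 9 macrophage markers was 458.7 FPKM in DP cells and 544.6 in nasal neutrophils, against 400.2 in blood neutrophils, with the complement gene C1qb at 32.3, 80.9 and 0 FPKM. Without Cd68 that sum was 162.4, 363.5 and 164.9 FPKM in DP cells, nasal and blood neutrophils. The sum of 7 dendritic cell markers was 8.29 FPKM in DP cells and 17.0 in nasal neutrophils, against 7.44 in blood neutrophils, and Clec9a was at 0 in both nasal libraries. Without Ccr7 that sum was 6.62, 6.65 and 3.47 FPKM in the same order. Of the dendritic cell markers, 3 were higher in DP cells than in nasal neutrophils, such as Cd209a at 4.17 against 3.38 FPKM, and 3 were lower, such as Ccr7 at 1.67 against 10.4 FPKM. Of the lists, 6, 7 and 3 macrophage markers and 3, 3 and 2 dendritic cell markers reached 1 FPKM in DP cells, nasal and blood neutrophils. Of the macrophage markers, only Cd68 was higher in DP cells than in nasal neutrophils, at 296.3 FPKM in DP cells and 181.1 in nasal neutrophils, against 235.3 in blood neutrophils.

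The promoters of Itgam and Itgax, whose transcripts differed in opposite directions between DP and nasal neutrophils, are shown as the 250 bases before the RefSeq start in GRCm38.p6, a later build than the mm9 of the deposited values. Itgam lies at chr7:128062390-128062639 and Itgax at chr7:128129300-128129549, both on the + strand. Capitals mark matches, on either strand, to GAGGAA or to GGNNNTTCC. The former is one form of the site that the myeloid factor PU.1 binds, and the latter is a loose form of the NF-kappaB site.
Itgam: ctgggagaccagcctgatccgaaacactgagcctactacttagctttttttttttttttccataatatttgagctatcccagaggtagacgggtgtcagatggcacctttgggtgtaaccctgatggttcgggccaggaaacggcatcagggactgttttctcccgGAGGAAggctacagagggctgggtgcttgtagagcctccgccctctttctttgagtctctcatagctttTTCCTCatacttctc
Itgax: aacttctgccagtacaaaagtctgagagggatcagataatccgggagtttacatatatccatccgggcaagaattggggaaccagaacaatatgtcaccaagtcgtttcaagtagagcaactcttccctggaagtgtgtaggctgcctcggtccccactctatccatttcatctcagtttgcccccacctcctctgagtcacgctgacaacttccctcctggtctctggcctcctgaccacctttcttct
Itgam held the first of these motifs at 2 places, 84 to 79 and 15 to 10 bases before the start, and Itgax held neither in this window. Of 32851 RefSeq promoters of the same length, 23.3% held GAGGAA and 15.7% held GGNNNTTCC, and of the 38 promoters found for 35 members 13 and 8 did.

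The β1 integrins were arranged differently in nose and blood. Itgb1, the β1 chain, stood at 26.1 FPKM in DP cells and 38.8 in nasal neutrophils, against 3.26 in blood neutrophils. Itga5, which joins β1 in the fibronectin receptor, stood at 28.3 FPKM in DP cells and 43.1 in nasal neutrophils, against 6.36 in blood neutrophils. Both genes of that pair were therefore high in both nasal libraries and low in blood. Itga4, whose pair with β1 binds VCAM-1 and fibronectin, went the other way, at 5.55 FPKM in DP cells and 3.98 in nasal neutrophils, against 15.6 in blood neutrophils. Between nasal and blood neutrophils the difference was 3.22 for Itgb1, 2.58 for Itga5 and -1.74 for Itga4. Between DP and nasal neutrophils it was -0.55, -0.59 and 0.40 for the same genes. Of the sum of Itga4 and Itga5, Itga4 made up 16.4% in DP cells, 8.45% in nasal neutrophils and 71.0% in blood neutrophils. Itgb1 is also expressed by epithelial, stromal and neuronal cells, whose marker sums are given above and below, and their part in its nasal level was not tested. The sum of 9 T and natural killer cell markers was 16.0, 6.59 and 14.1 FPKM in DP cells, nasal and blood neutrophils, or 6.51, 3.68 and 11.4 without Nkg7. For 7 B and plasma cell markers it was 565.7, 433.1 and 243.7 FPKM, or 4.84, 45.4 and 63.7 without Xbp1. The part of lymphocytes in the Itga4 level was not tested.

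The promoters of Itga4 at chr2:79255176-79255425 on the + strand and of Itga5 at chr15:103366792-103367041 on the - strand (GRCm38.p6) are shown in the same way because these α chains exchanged places between blood and nose.
Itga4: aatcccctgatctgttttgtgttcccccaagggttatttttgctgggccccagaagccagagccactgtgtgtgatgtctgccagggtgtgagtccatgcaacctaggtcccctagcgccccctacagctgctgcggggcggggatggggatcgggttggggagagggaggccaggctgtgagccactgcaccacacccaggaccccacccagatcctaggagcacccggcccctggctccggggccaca
Itga5: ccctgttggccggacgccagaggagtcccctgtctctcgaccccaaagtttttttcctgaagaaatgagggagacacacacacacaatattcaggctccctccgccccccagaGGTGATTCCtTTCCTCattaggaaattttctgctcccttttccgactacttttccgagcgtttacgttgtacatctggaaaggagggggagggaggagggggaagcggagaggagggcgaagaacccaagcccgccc
Itga5 held GGNNNTTCC at 137 to 129 bases and GAGGAA, on the other strand, at 127 to 122 bases before the start, while Itga4 held neither.

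Among the remaining integrin chains, Itgb7, which pairs with α4 in binding the gut vessel molecule MAdCAM-1, stood at 4.99 FPKM in DP cells and 13.4 in nasal neutrophils, against 6.88 in blood neutrophils. Itgav, the αv chain, stood at 4.55, 3.86 and 1.32 FPKM in DP cells, nasal and blood neutrophils. Its partner Itgb5 stood at 3.47, 2.15 and 0.19 FPKM. Both were low in blood, where Itgb5 rested on about 34 fragments. Itgb6, the epithelial partner of αv, stood at 1.46 FPKM in DP cells and 0.68 in nasal neutrophils, against 0.66 in blood neutrophils. Itga6, a laminin receptor chain, stood at 1.44, 0.64 and 0.18 FPKM in that order. The platelet integrin genes were low throughout. Itga2b stood at 0.29, 0.26 and 1.14 FPKM in DP cells, nasal and blood neutrophils, and Itgb3 at 0.16, 1.71 and 1.06 FPKM. The sum of 9 platelet markers was highest in blood neutrophils, at 8.84 FPKM in DP cells and 5.32 in nasal neutrophils, against 25.7 in blood neutrophils, and whether platelets gave a part of the Itga2b value was not tested. Of the other low α and β chains, Itga8 reached 1.31 FPKM in blood neutrophils, Itga3 reached 0.67 FPKM in nasal neutrophils and Itgae reached 0.62 FPKM in DP cells. Itga1, Itga2, Itga7, Itga9, Itga10, Itga11, Itgb4 and Itgb8 stayed under 0.5 FPKM in all 3 libraries.

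The selectin ligand differed between nose and blood, and Selp and Sele were low in every library. Selplg, which encodes PSGL-1, stood at 399.7 FPKM in DP cells and 399.2 in nasal neutrophils, against 1017 in blood neutrophils. The PSGL-1 transcript was thus near equal in both nasal libraries, with a difference of 0.00, and higher in blood, with a difference of -1.35 between nasal and blood neutrophils. Selp, the P-selectin of platelets and endothelium, stood at 1.09 FPKM in DP cells and 5.29 in nasal neutrophils, against 4.95 in blood neutrophils. Sele, the E-selectin of activated endothelium, stood at 0.69, 1.94 and 1.09 FPKM, and in blood neutrophils 8 of 10 endothelial markers were listed at 0. The neutrophil marker sums given above were also highest in blood neutrophils, but the single markers were divided. S100a9, Retnlg, Csf3r, Cxcr2 and Mmp8 were higher in blood, while Ngp, Camp, Lcn2 and, by little, Mmp9 were higher in nasal neutrophils. Without S100a9 the sum was 45180 FPKM for the nasal and 27351 for the blood library, with S100a8 listed at 0 in the latter. The part of neutrophil RNA in the Selplg level was not tested.

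The immunoglobulin superfamily molecules held the largest difference between nasal and blood neutrophils among the members. Icam1, a counter-receptor of LFA-1 and Mac-1 that inflammatory signals induce, stood at 108.6 FPKM in DP cells and 412.0 in nasal neutrophils, against 4.64 in blood neutrophils. It was thus intermediate in DP cells, with a difference of -1.91 from nasal neutrophils and of 4.28 from blood neutrophils, and between nasal and blood neutrophils the difference was 6.19. Vcam1, the counter-receptor of the α4 integrins on endothelium and some macrophages, stood at 1.20 FPKM in DP cells and 7.27 in nasal neutrophils, against 0.01 in blood neutrophils. Esam, a molecule of endothelial junctions, stood at 1.41, 5.12 and 0.03 FPKM in DP cells, nasal and blood neutrophils. In blood their values rested on about 2 and 3 fragments. The summed level of 10 endothelial markers was 24.9 FPKM in DP cells and 29.8 in nasal neutrophils, against 0.04 in blood neutrophils, with 5, 8 and 0 of them at 1 FPKM or more. Of these markers 6 of 10 were lower in DP cells than in nasal neutrophils, such as Plvap at 4.91 against 9.17 FPKM, and 4 were higher, such as Egfl7 at 8.23 against 6.40 FPKM. Vcam1 and Esam were lower in DP cells, by differences of -1.91 and -1.35. The part of endothelial RNA in the levels of Vcam1, Esam and Icam1 was not tested.

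The Icam1 promoter at chr9:21015690-21015939 on the + strand (GRCm38.p6) is shown because Icam1 had the largest difference between nasal and blood neutrophils among the members.
Icam1: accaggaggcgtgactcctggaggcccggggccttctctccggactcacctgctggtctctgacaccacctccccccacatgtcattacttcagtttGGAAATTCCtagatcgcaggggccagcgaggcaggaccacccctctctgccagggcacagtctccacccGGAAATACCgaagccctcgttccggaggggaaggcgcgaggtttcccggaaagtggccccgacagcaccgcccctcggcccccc
It held GGNNNTTCC at 2 places. The nearer to the start, at 84 to 76 bases, was read on the other strand, and the farther, at 153 to 145 bases, matched the motif on both strands. It held no GAGGAA.

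Jam3, which encodes JAM-C, a junctional molecule that Mac-1 binds, was the member with the largest difference in favour of DP against nasal neutrophils. It stood at 30.5 FPKM in DP cells and 4.26 in nasal neutrophils, against 2.65 in blood neutrophils, a difference of 2.58 between DP and nasal neutrophils. Its relative F11r (JAM-A), present in epithelium, endothelium and leukocytes, stood at 19.7 FPKM in DP cells and 22.7 in nasal neutrophils, against 6.37 in blood neutrophils. Jam2 (JAM-B) stood at 1.86, 0.77 and 0.03 FPKM in DP cells, nasal and blood neutrophils. The family thus differed among its members, with Jam3 high in DP cells alone and F11r high in both nasal libraries. Of the olfactory neuron markers, 9 of 10 were also higher in DP cells than in nasal neutrophils. Of the epithelial markers 4 of 10 were, and without Krt18 their sum was 167.1 FPKM in DP cells and 182.0 in nasal neutrophils. Their part in the Jam3 level was not tested. Pecam1 stood at 4.06 FPKM in DP cells and 7.73 in nasal neutrophils, against 5.90 in blood neutrophils. Icam2 stood at 4.35, 3.93 and 7.98 FPKM, and Icam4 at 0.19, 0.50 and 0 FPKM, while Icam5 was listed at 0 in all 3 libraries.

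Of Cd44, Cd9 and Cd47, only Cd44 differed by 4-fold between any of the libraries. Cd44, the hyaluronan receptor, stood at 72.7 FPKM in DP cells and 371.6 in nasal neutrophils, against 356.0 in blood neutrophils, and so was low in DP cells alone, like Itgal and Itgam. Cd9, a tetraspanin that associates with integrins, stood at 1047, 1655 and 752.5 FPKM in DP cells, nasal and blood neutrophils, and was among the 72, 50 and 130 most abundant genes. Cd47, whose product is recognised by SIRPα, stood at 208.5 FPKM in DP cells and 193.9 in nasal neutrophils, against 155.7 in blood neutrophils, a smaller spread than that of Cd9 or Cd44.

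Of the activators of integrins, talin differed more than the leukocyte kindlin. Tln1, which encodes talin-1, stood at 7.29 FPKM in DP cells and 34.3 in nasal neutrophils, against 13.0 in blood neutrophils. Fermt3, which encodes kindlin-3, the kindlin of blood cells, stood at 42.6, 59.7 and 81.4 FPKM in DP cells, nasal and blood neutrophils. Kindlin-3 transcripts thus exceeded those of talin-1 in every library per unit of length. Fermt2, the kindlin of cells other than blood cells, stood at 2.33 FPKM in DP cells and 1.66 in nasal neutrophils, against 0.02 in blood neutrophils, and the part of fibroblast RNA in it was not tested. The sum of 7 fibroblast markers was 23.5 FPKM in DP cells and 14.0 in nasal neutrophils, against 0.02 in blood neutrophils, but without Dcn it was 1.77, 6.47 and 0.01 FPKM, and 5 of the 7 were lower in DP cells than in nasal neutrophils. Fermt1 and Tln2 stayed under 0.5 FPKM in all 3 libraries.

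The search by symbol also drew in genes that are no classical integrin chains. Itgb2l, a relative of the β2 chain that mouse neutrophils express, stood at 11.9 FPKM in DP cells and 49.2 in nasal neutrophils, against 9.39 in blood neutrophils. Itgb1bp1, whose product ICAP-1 binds the β1 tail and keeps the integrin inactive, stood at 69.5, 17.1 and 37.3 FPKM in DP cells, nasal and blood neutrophils. In FPKM the inhibitor was thus highest in DP cells and lowest in nasal neutrophils, and talin-1 was lowest in DP cells and highest in nasal neutrophils. The longest transcripts were 1921 nt for Itgb1bp1 and 8393 nt for Tln1. Between DP and nasal neutrophils the differences were 1.96 and -2.09, or 1.24 and -2.46 after the length correction described below. Between DP and blood neutrophils the difference for Itgb1bp1 was 0.88, but -0.07 after centring and -0.37 after the length correction. For Tln1 it was -0.76, -1.71 and -1.26 in the same order. That the inhibitor was higher in DP cells than in blood neutrophils thus depended on the scaling. Integrin activity was not measured. In RefSeq's annotation Itgb1bp1 overlaps the protein-coding genes Asap2 and Cpsf3, Itgb2l overlaps Igsf5, Itgad overlaps Cox6a2, Itga4 overlaps Cerkl and Fermt3 overlaps Trpt1, so reads may be divided among them, the more so as no use of strand is stated. Itgb1bp3, listed by RefSeq as a synonym of the nicotinamide riboside kinase gene Nmrk2, stood at 1.22, 1.22 and 1.80 FPKM, and the centromere gene Itgb3bp at 0.58, 0.22 and 0.03 FPKM. Itgb1bp2 and Itgbl1 stayed under 0.5 FPKM in all 3 libraries.

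Most of the 30 members were lower in DP cells than in nasal neutrophils, while most tested genes were higher. Of these, 1 (Jam3) was at least 4-fold higher in DP cells and 4 (Itgal, Cd44, Itgam and Tln1) were at least 4-fold lower, against 8.42% higher and 3.62% lower of 10719 tested genes. Without the limit on the mean the counts were also 1 and 4, of 53, against 903 and 388 of all 23234 listed genes. The median difference was -0.51 over the 30 members and 0.57 over all tested genes, with 18 of the 30 below 0. The median of all genes shifts with scaling: with differences centred on it, 1 member was higher and 8 were lower, against 3.36% and 7.21% of all genes, and 903 higher and 388 lower genes became 360 and 773. All 5 members kept their side and their 4-fold difference after centring, and Icam1, Vcam1, Itgb2l and Selp joined those lower in DP cells.

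Between nasal and blood neutrophils, 6 of the 30 members (Icam1, Itgb1, Vcam1, Itga5, Esam and Itgb2l) were at least 4-fold higher in the nose and 0 were at least 4-fold lower, against 13.1% higher and 3.23% lower of all tested genes. The median was 0.61 over the members and 0.41 over all genes. After centring the counts were 5 and 1, against 9.03% and 5.68%, with Itgb2l at 1.86 and Itga4 at -2.15. After the length correction described below they were 4 and 0, against 953 and 584 of 10580 genes. Esam at 1.88 and Itgb2l at 1.86 then fell short of 4-fold. Between DP and blood neutrophils, 5 members were at least 4-fold higher in DP cells (Icam1, Itgax, Jam3, Itgb1 and Itgad) and 3 were lower (Itgal, Itgam and Cd44), against 24.0% and 3.57% of all genes. The medians were 0.37 and 0.95, and after centring the counts were 3 and 6, against 10.4% and 9.06%. Itgb1 at 1.72 and Itgad at 1.09 then fell short of 4-fold, and Itga4, Selp and Selplg joined those lower. After the same length correction the counts were 2 and 6, against 995 and 964 of 10580 genes. Itgb1 then stood at 1.91, Jam3 at 1.86 and Itgad at 1.25. The comparisons share libraries, so their counts are not separate results. Over the 30 members, 8 had their highest value in DP cells and 15 in nasal neutrophils, against 7 in blood neutrophils, while 58.7% of all tested genes were highest in DP cells and 22.3% in nasal neutrophils.

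**Figure D3:**
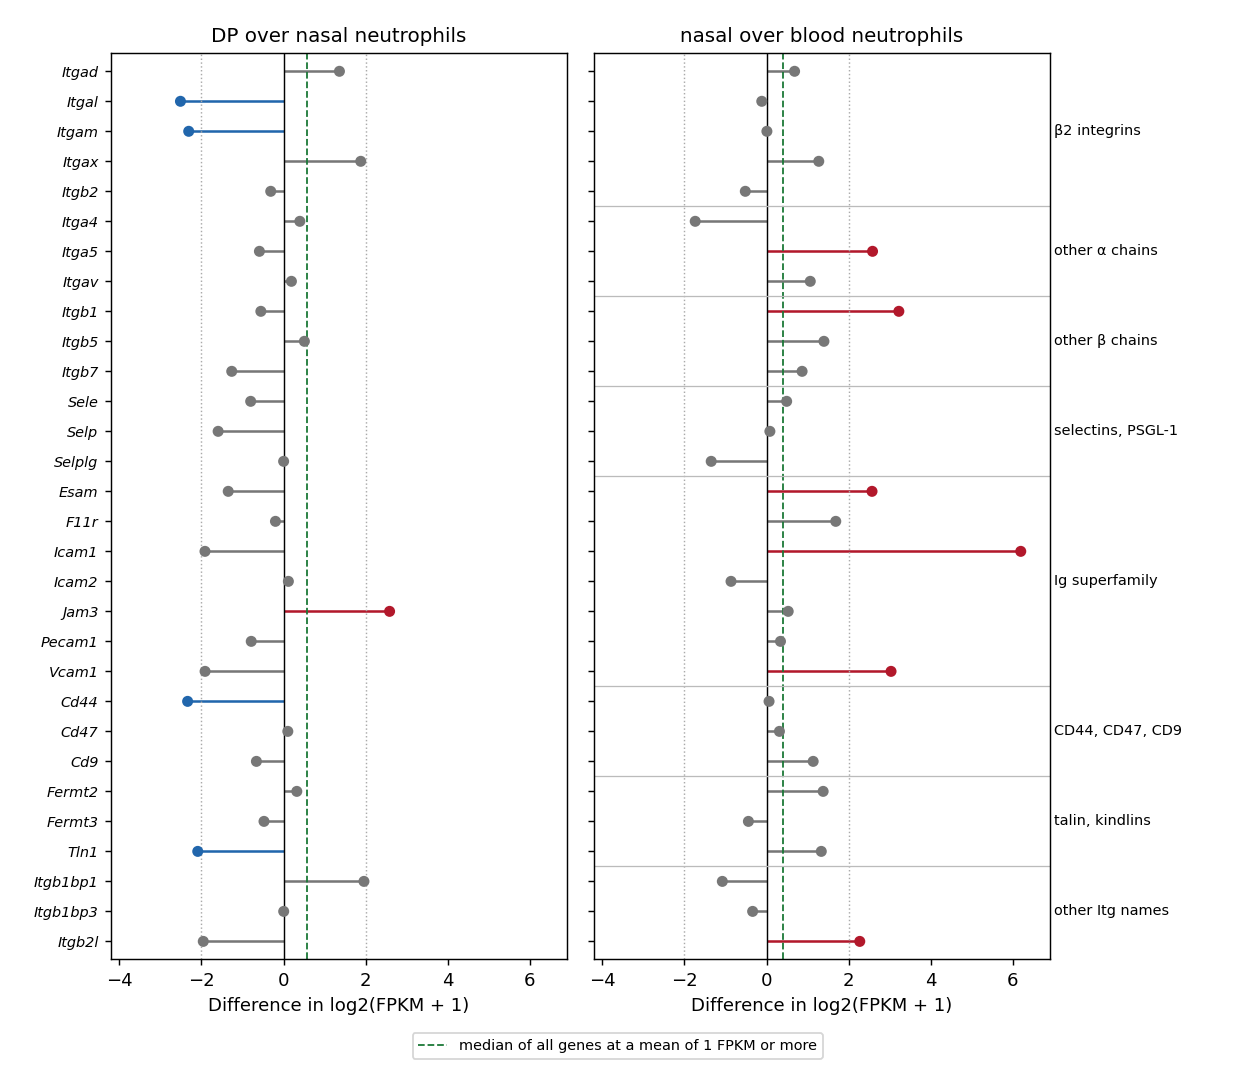
Difference in log2(FPKM + 1) for each of the 30 members, DP minus nasal neutrophils on the left and nasal minus blood neutrophils on the right, with 1 library per group. Coloured points pass 4-fold (dotted lines), red higher and blue lower, and the dashed line is the median of all tested genes (0.57 and 0.41). Icam1 lies at -1.91 and 6.19, and Itgal at -2.51 and -0.12.

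Transcript length moved with the difference between DP and nasal neutrophils. The median difference over all tested genes was 1.18 for 876 genes with a longest transcript of up to 1000 nt and 0.28 for 1073 genes over 6000 nt. The members lower in DP cells by 4-fold had longest transcripts from Itgam at 4682 nt to Tln1 at 8393 nt, against 1942 nt for Jam3. With the median of genes of like length taken off, a step added after seeing the data, Jam3 stood at 1.87 and no longer passed 4-fold. The transcript a cell uses can be shorter than the longest annotated.

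**Figure D4:**
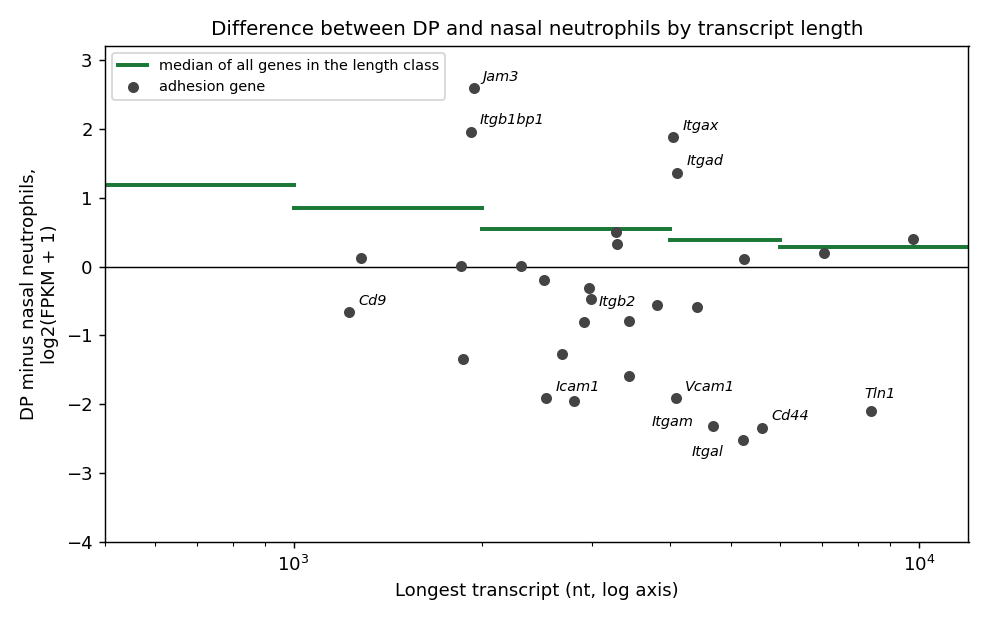
Difference in log2(FPKM + 1) between DP and nasal neutrophils against the longest annotated transcript (nt, log axis) for the 30 members, 1 point each, with green lines for the median of all tested genes in 5 length classes. The medians run from 1.18 to 0.28 with length, Itgax (1.88) and Jam3 (2.58) lie above them and Itgal, Cd44, Itgam and Tln1 lie below -2.

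Genes of the wider adhesion pathway were read from lists with at most 3 examples each. Their counts at 4-fold stand against 8.42% higher and 3.62% lower of all tested genes for DP against nasal neutrophils, or 3.36% and 7.21% after centring, and with lists this short nothing particular to a list is read from them. Of 14 genes of inside-out integrin signalling, 0 were 4-fold higher and 2 were 4-fold lower in DP cells than in nasal neutrophils, or 0 and 3 after centring, with a median of -0.47. Rasgrp2, which activates the integrin-directing GTPase Rap1, stood at 3.56 FPKM in DP cells and 23.3 in nasal neutrophils, against 42.1 in blood neutrophils. Rap1b, a Rap1 gene itself, ran the opposite way, at 531.6, 150.9 and 82.5 FPKM, and Sipa1, which switches Rap off, stood at 14.5, 34.3 and 5.80 FPKM in DP cells, nasal and blood neutrophils. Of 23 measured adaptors and kinases out of 27, 0 were higher and 4 lower in DP cells by 4-fold, or 0 and 5 after centring, with a median of -0.27. Flna, the actin crosslinker that competes with talin for integrin tails, stood at 3.45 FPKM in DP cells and 70.6 in nasal neutrophils, against 31.0 in blood neutrophils. Pxn (paxillin) stood at 10.9, 103.8 and 64.5 FPKM and Vasp, an actin elongation factor, at 160.2, 1007 and 155.0 FPKM in the same order. All 3 were thus lower in DP cells than in nasal neutrophils, with Flna, at 8456 nt, in the longest class described above. Between nasal and blood neutrophils, 2 genes of inside-out signalling were higher and 0 lower by 4-fold, but 0 were higher and 2 lower after centring. Of the adaptors and kinases 1 was higher and 0 lower with and without centring, against 13.1% and 3.23% of all genes, or 9.03% and 5.68% after centring.

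Of 7 measured sheddase genes out of 8, 0 were higher and 3 lower in DP cells than in nasal neutrophils by 4-fold, with and without centring. These were Adam8, at 35.6 FPKM in DP cells and 180.5 in nasal neutrophils, against 147.3 in blood neutrophils, Adam15, at 1.81, 17.7 and 6.82 FPKM, and Rhbdf2, at 2.29, 24.4 and 6.34 FPKM. Rhbdf2 encodes iRhom2, a partner that Adam17 needs, while Adam17 itself, a sheddase of many surface proteins and named after its values were seen, stood at 25.2, 25.1 and 21.3 FPKM. Of 6 tetraspanins, 1 (Cd81) was higher and 0 lower in DP cells than in nasal neutrophils by 4-fold, and after centring none was, with Cd81 at 1.77. Cd81 stood at 644.9 FPKM in DP cells and 126.5 in nasal neutrophils, against 23.6 in blood neutrophils, and Cd63, of granules and endosomes, at 919.2, 414.1 and 141.3 FPKM. Both followed the order of Itgax and not that of Cd9, and Cd151 showed little spread, at 19.6, 10.5 and 17.0 FPKM.

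Of 10 measured genes of selectin ligand synthesis out of 11, none passed 4-fold between DP and nasal neutrophils. The galactosyltransferase gene B4galt1 stood at 62.1 FPKM in DP cells and 25.1 in nasal neutrophils, against 4.44 in blood neutrophils. Gcnt1, which makes the branched sugar that PSGL-1 carries, stood at 95.0, 26.8 and 64.1 FPKM, and the sialyltransferase gene St3gal6 at 68.7, 100.8 and 223.6 FPKM. These enzymes thus did not share an order across the libraries. Of 12 measured adhesion partners out of 13, 0 were higher and 4 lower by 4-fold in DP cells than in nasal neutrophils, with and without centring. By the same limit 3 were higher and 0 lower in nasal than in blood neutrophils, or 2 and 0 after centring. Thbs1, a matrix ligand of CD47, stood at 13.5 FPKM in DP cells and 409.7 in nasal neutrophils, against 0.61 in blood neutrophils. Cd177, a neutrophil surface protein that associates with Mac-1, stood at 23.0, 354.3 and 109.7 FPKM, and Plaur, the urokinase receptor, at 817.8, 1588 and 226.0 FPKM. Of 12 matrix ligands of integrins 3 were measured, of which 0 were higher and 1 lower in DP cells than in nasal neutrophils by 4-fold, with and without centring. The one lower was Fn1, which encodes fibronectin, at 0.68 FPKM in DP cells and 12.7 in nasal neutrophils, against 0.04 in blood neutrophils. Col1a1, a collagen gene named like Fn1 after its values were seen, stood at 0.95, 2.81 and 0.0038 FPKM, and Spp1, which encodes osteopontin, stood at 196.7 FPKM in DP cells and 114.5 in nasal neutrophils, against 7.75 in blood neutrophils.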

How the data were processed

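Total RNA of sorted cells was extracted with TRIzol LS and sequenced after library preparation with a kit for low input, per the labels' protocols. The values the authors deposited are FPKM per gene, 1 column per library. The file headers name the libraries but not the unit, which follows from Cufflinks, named with TopHat2 2.0.8, Bowtie2 2.1.0 and mm9 in the submitters' processing notes (Cufflinks 2.1.1). Settings, annotation and any use of strand: not given in the sources used here.

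The members were the genes whose symbol matched the chosen names. Of these, 1 is not reported here, and it was left out of every count, median and plot of the members. The members and gene lists were chosen with earlier results of these data known. Values above 0 and under 1e-06 FPKM (32 in DP, 20 in nasal and 43 in blood neutrophils) were set to 0. Differences were taken in log2(FPKM + 1), over genes with a mean of 1 FPKM or more, with Python 3.11.15, numpy 2.4.6 and pandas 2.3.3. Each group had 1 library, so no test was made. Every other member with a mean of 1 FPKM or more was named, members under it where a library reached 0.5 FPKM (others named were chosen after their values were seen), and of each pathway list the 3 genes with the largest difference at a mean of 5 FPKM or more. Depth was estimated from the step between low values times length, over genes with a single transcript above 1500 nt in GENCODE M21 (a step counted within 6%), and is approximate. Lengths, used as lengths only, were found for 98.7% of tested genes. Alternatives were pseudocounts of 0.1 and 5 FPKM, no limit on the mean or one of 5 FPKM, centring, rescaling to a sum of 1000000 and 2-fold, and, after seeing the data, correction for length in 20 bins and omission of genes at 0.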

Additional observations from a re-analysis of the deposited data

How the results depend on the processing

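No paired analysis was possible because each group had 1 library. No difference of a member past 4-fold changed direction under the pseudocounts, centring, rescaling or length correction. With a pseudocount of 0.1 FPKM, genes past 4-fold numbered 1969 (1291 as reported) for DP against nasal neutrophils and 3371 (1754) for nasal against blood neutrophils, and members 9 (5) for DP against nasal neutrophils and 14 (8) for DP against blood neutrophils. With 5 FPKM, genes numbered 644, 685 and 1203 (2960) for DP against nasal, nasal against blood and DP against blood neutrophils, and members 3 for DP against nasal neutrophils and 3 (6) for nasal against blood neutrophils. At 2-fold, genes numbered 4807, 4967 and 6231 and members 14, 16 and 18 in the same order. Centring gave 9 members for DP against nasal neutrophils. Length correction, chosen after seeing the data, gave 9 members there, 0 higher and 9 lower, with Jam3 at 1.87. By the same correction 287 of 10580 genes were higher and 757 lower there, and 1959 genes passed 4-fold for DP against blood neutrophils. Jam3 was also under 4-fold with a pseudocount of 5 FPKM, at 1.94, as was Tln1, at -1.68. Depth limits Vcam1, Esam and Fermt2 in blood neutrophils, at about 2, 3 and 4 fragments. The cause of these shifts was not tested.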
